A study of Mus musculus with 8 samples.

Results

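The Spata (spermatogenesis associated) and Tex (testis expressed) symbols were given to genes found through their expression in the testis, and they group proteins with many different functions. The 57 genes described here are every row of the deposited table whose symbol is Spata or Tex directly followed by a digit, 28 Spata and 29 Tex genes of 16349 genes in all. The rule goes by name alone, and the role, partner and marker lists used below were drawn up with earlier results of these data known. All 57 reached 10 normalised reads in 2 or more libraries and entered the test, as did 15685 genes of the whole table. They lie on 17 chromosomes.

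RNA was measured in elongating spermatids, the later haploid germ cells whose nucleus is being compacted while the tail forms, and in round spermatids, the earlier stage. Each stage was labelled conditional knockout (cKO) of Carm1 or wild type (WT), with 2 libraries in each of the 4 groups, all from C57BL/6 mice with no treatment. CARM1 methylates arginines of histones and of other proteins and serves as a coactivator of transcription. Which Cre drives the deletion, which exons it removes and how old the animals were is not stated in the labels. Each sample was a pool of 8 testes separated by centrifugal elutriation, a sorting of cells by size and density, and poly A RNA was sequenced from unstranded libraries. The labels do not tell whether the paired libraries of a group are from different mice, and the spread behind each p-value may therefore be technical.

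Spermatids build an acrosome, a flagellum and a midpiece sheath of mitochondria, couple the head to the tail, and replace histones by protamines. Much of the RNA needed is made in round spermatids and stored for later translation. Several members serve these steps: Spata6 is needed for the connecting piece between head and tail, Spata16 for the acrosome, Spata19 and Spata33 for the midpiece, and Tex40 encodes the CATSPERZ subunit of the sperm calcium channel. Others act earlier, in meiosis, such as Tex11, Tex12, Tex15 and Spata22, or in the bridges that join germ cells, such as Tex14. A further group, including Spata2, Spata5, Tex10, Tex261 and Tex264, serves general cell functions in many tissues.

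Levels are normalised read counts, in which the authors had divided whole reads by a size factor per library. Recovered reads came to 17190962 to 23526694 per library. Carm1 itself measured 8157 and 7993 in elongating KO-labelled libraries, against 4308 and 4534 in elongating WT libraries. It measured 1174 and 1343 in round KO-labelled libraries, against 1649 and 1686 in round WT libraries. The target gene was thus lower in the round KO-labelled libraries (log2 fold change -0.41, SE 0.053, adjusted p = 3.8e-05). It was higher in the elongating ones (log2 fold change 0.87, SE 0.053, adjusted p = 2.7e-09), opposite to a loss of RNA over the whole gene. The deleted exons are not stated, so the count can include RNA of exons that remain. Exons of Carm1 also overlap those of Yipf2 on the other strand. The Carm1 level puts the elongating labels in doubt but cannot settle whether they are right. The term KO-labelled is used for that reason, and each direction in elongating spermatids rests on a label so in doubt. All 10 markers of elongating spermatids were called higher in elongating than in round WT libraries. In the elongating KO-labelled libraries all 10 were called higher than in WT, with summed levels of 6759880 and 6571180 against 3886310 and 3928900 in WT. Of 7 round spermatid markers 1 was called higher and 5 lower there, and their sums were 70720 and 75049 against 55469.6 and 52948 in WT. All 14 macrophage markers were called lower, at 6386 and 6351 against 14026 and 13990.5, and 0 of 13 Sertoli markers higher and 9 lower, at 6146 and 6053 against 8849.8 and 8904. In round spermatids 6 macrophage markers were called higher and 0 lower, at 292 and 281 against 208 and 231, and 0 Sertoli markers higher and 8 lower, at 355 and 355 against 568 and 571. Of 12 spermatogonial markers 3 were called higher and 5 lower in elongating and 4 higher and 0 lower in round KO-labelled libraries, and of 12 peritubular and vascular markers 5 and 2 in elongating and 4 and 1 in round ones. Fshr, a Sertoli marker, was at 0 in both round KO-labelled libraries. The part of cell makeup in the results below was not tested, and fewer cells of a type cannot be told apart from less RNA per cell in these bulk samples.

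The members spanned a wide range of levels. The 57 genes together took 2.28% and 2.25% of reads in elongating KO-labelled libraries and 2.13% and 2.16% in elongating WT libraries, against 1.46% and 1.48% in round KO-labelled and 1.47% and 1.47% in round WT libraries. In elongating WT spermatids 15 members averaged at least 10000 normalised reads and 10 averaged under 100, and in round WT spermatids these counts were 3 and 7. A few genes carried most of the signal at the later stage. Spata18, Spata20, Spata3, Spata6, Spata21 and Spata7 held 76.3% of the members' summed level in elongating KO-labelled libraries and 72.3% in elongating WT libraries. Per kilobase of exon the highest level in elongating WT libraries was that of Spata18, at 67470, followed by Spata20 at 33410, Spata3 at 29220, Spata21 at 23880 and Tex35 at 16400. In round WT libraries Spata4 led at 7814 per kilobase, followed by Tex33 at 7145, Spata20 at 5973, Spata21 at 5700 and Tex40 at 3547. The lowest in round WT libraries were Spata13 at 1.17 and Spata5l1 at 2.43 per kilobase.

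**Figure D1:**
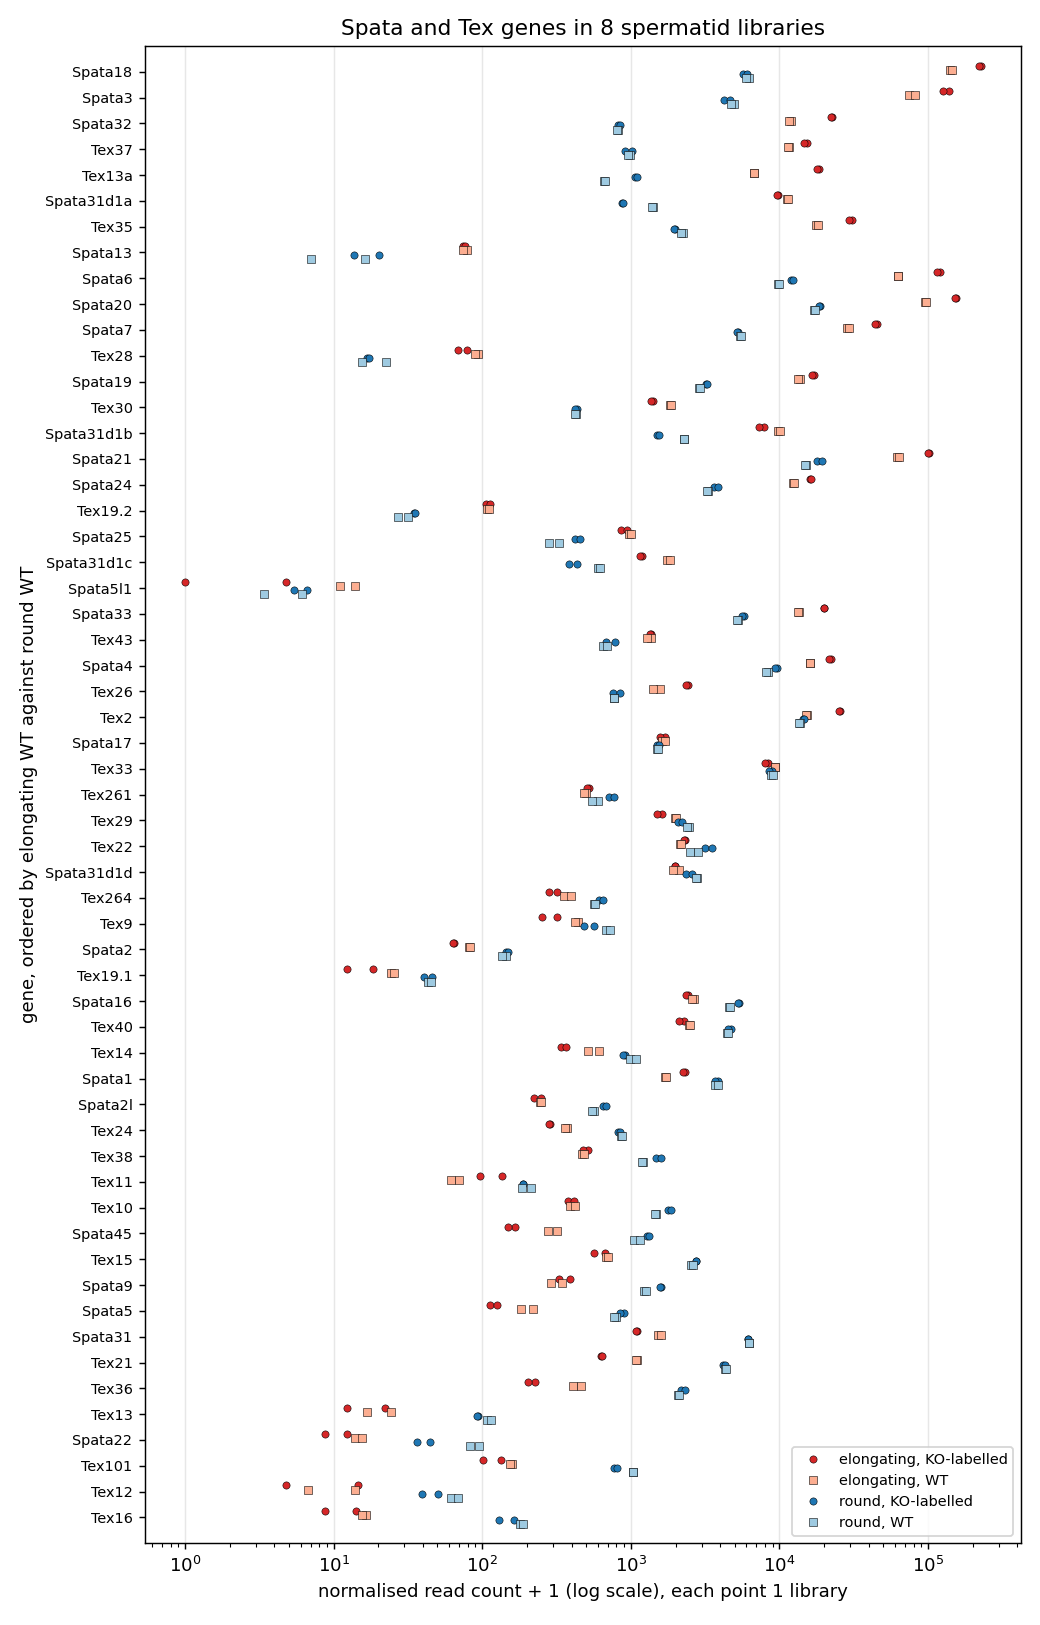
Normalised read count + 1 of each of the 57 genes (log axis), 1 point per library, with circles for KO-labelled and squares for WT libraries of elongating (red) and round (blue) spermatids. Genes run from highest to lowest by elongating WT against round WT, and Spata18 at the top measured 140222 and 144091 in elongating WT libraries against 6200.2 and 5975 in round WT libraries.

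The normal course from round to elongating spermatids was read from the WT libraries. Of 57 members, 27 were called higher and 29 lower in elongating WT than in round WT libraries, where 41.7% and 40.2% of all tested genes were called, 81.9% in either direction. The median log2 difference was -0.22 for the members and 0.01 for all tested genes. Among the Spata genes 17 of 28 were called higher and 10 lower, and among the Tex genes 10 of 29 higher and 19 lower. The largest rise was that of Spata18, a gene studied as a p53 target in mitochondrial quality control. It measured 140222 and 144091 in elongating WT libraries, against 6200.2 and 5975 in round WT libraries (log2 fold change 4.55, SE 0.033, adjusted p = 5.4e-21). Spata3 came next with 74225 and 81579.6 in elongating WT libraries, against 4917 and 4714 in round WT libraries (log2 fold change 4.01, SE 0.05, adjusted p = 1.8e-18). Spata32, Tex37, Tex13a, Spata31d1a, Tex35 and Spata13 completed the 8 largest rises, by 3.85, 3.57, 3.34, 3.02, 3.02 and 2.85. Tex37 encodes a protein found inside the microtubule doublets of the sperm tail, and Spata13 a guanine nucleotide exchange factor for small GTPases, which remained low at 78.6 and 73.5 in elongating WT libraries, against 15.3 and 6.05 in round WT libraries. The largest fall was that of X-linked Tex16, with 15.5 and 14.4 in elongating WT libraries, against 179 and 187 in round WT libraries (log2 fold change -3.53, SE 0.24, adjusted p = 2.5e-09). Tex12, a central element protein of the synaptonemal complex, fell by 2.75, and Tex101, a germ cell surface protein needed for ADAM3 on sperm, fell by 2.72. Spata22, Tex13, Tex36, Tex21 and Spata31 also fell, with log2 differences of -2.59, -2.46, -2.27, -1.99 and -1.99. With total-count scaling the median of all genes was -1.42, and 19 members were called higher and 36 lower (3067 and 10799 of the 15685 tested genes). Under all 4 scalings (these totals, totals without the 50 most abundant genes, TMM and the deposited one) 19 rises and all 29 falls were called. Both kinds of totals shifted the median of all genes down, by -1.43 and -1.03, so a fall could hardly fail with them. The calls for Tex33 (0.08, adjusted p = 0.0498) and Spata17 (0.13, adjusted p = 0.024) turned to -1.39 and -1.34 with total-count scaling. Both calls also ended without round WT replicate 1 (adjusted p = 0.26 and 0.11), without round WT replicate 2 (0.059 and 0.069) and without elongating WT replicate 2 (0.1 and 0.15), and that of Tex33 without elongating WT replicate 1 (0.19).

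The effect of the knockout label was read at each stage, the comparison the study's design names. In elongating spermatids 18 members were called higher and 22 lower in the KO-labelled libraries, 31.6% and 38.6% of the 57, where 27.3% and 27.7% of all tested genes were called, 55% in either direction. The median log2 fold change was -0.08 for the members and -0.07 for all tested genes. In round spermatids 18 members were called higher and 9 lower, 31.6% and 15.8%, against a background of 19.4% and 12.6%, or 32% in either direction. Without round WT replicate 2 fewer falls were called in round spermatids, both among the members and over all tested genes. With all libraries the round medians were 0.05 for the members and 0.03 for all tested genes. Most effects were small: 1 rise and 2 falls in elongating spermatids, and 0 rises and 1 fall in round spermatids, were over 2-fold. The falls in elongating spermatids include that of Spata5l1, which rests on 2 reads and is given by its reads further on. Spata genes, 28 of the 57, made up 12 of the 18 rises in elongating and 12 of the 18 in round spermatids. They also made up 9 of the 22 falls in elongating and 5 of the 9 in round spermatids.

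The elongating counts depended on the scaling, and there the share of reads in the 50 most abundant genes was 34.9% and 34.8% in KO-labelled against 31.9% and 31.9% in WT libraries. With total-count scaling the median of all genes was -0.61 and 9 members were called higher and 42 lower (1394 and 9854 of the 15685 tested genes). Totals without the 50 most abundant genes gave 12 and 40 (1645 and 9308 of all tested genes). In round spermatids the same scalings each gave 12 and 16 (2197 and 3060, then 2194 and 3002, of all tested genes). Under the 4 scalings run (deposited, TMM and the 2 kinds of totals) Tex13a, Spata32, Spata6, Spata3, Tex35, Tex2, Spata21, Spata20 and Spata18 were called higher in elongating KO-labelled libraries. All 22 falls held too, but the 2 kinds of totals shifted the median of all genes by -0.54 and -0.49. A fall could thus hardly fail with these totals, and that the falls held adds little.

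**Figure D2:**
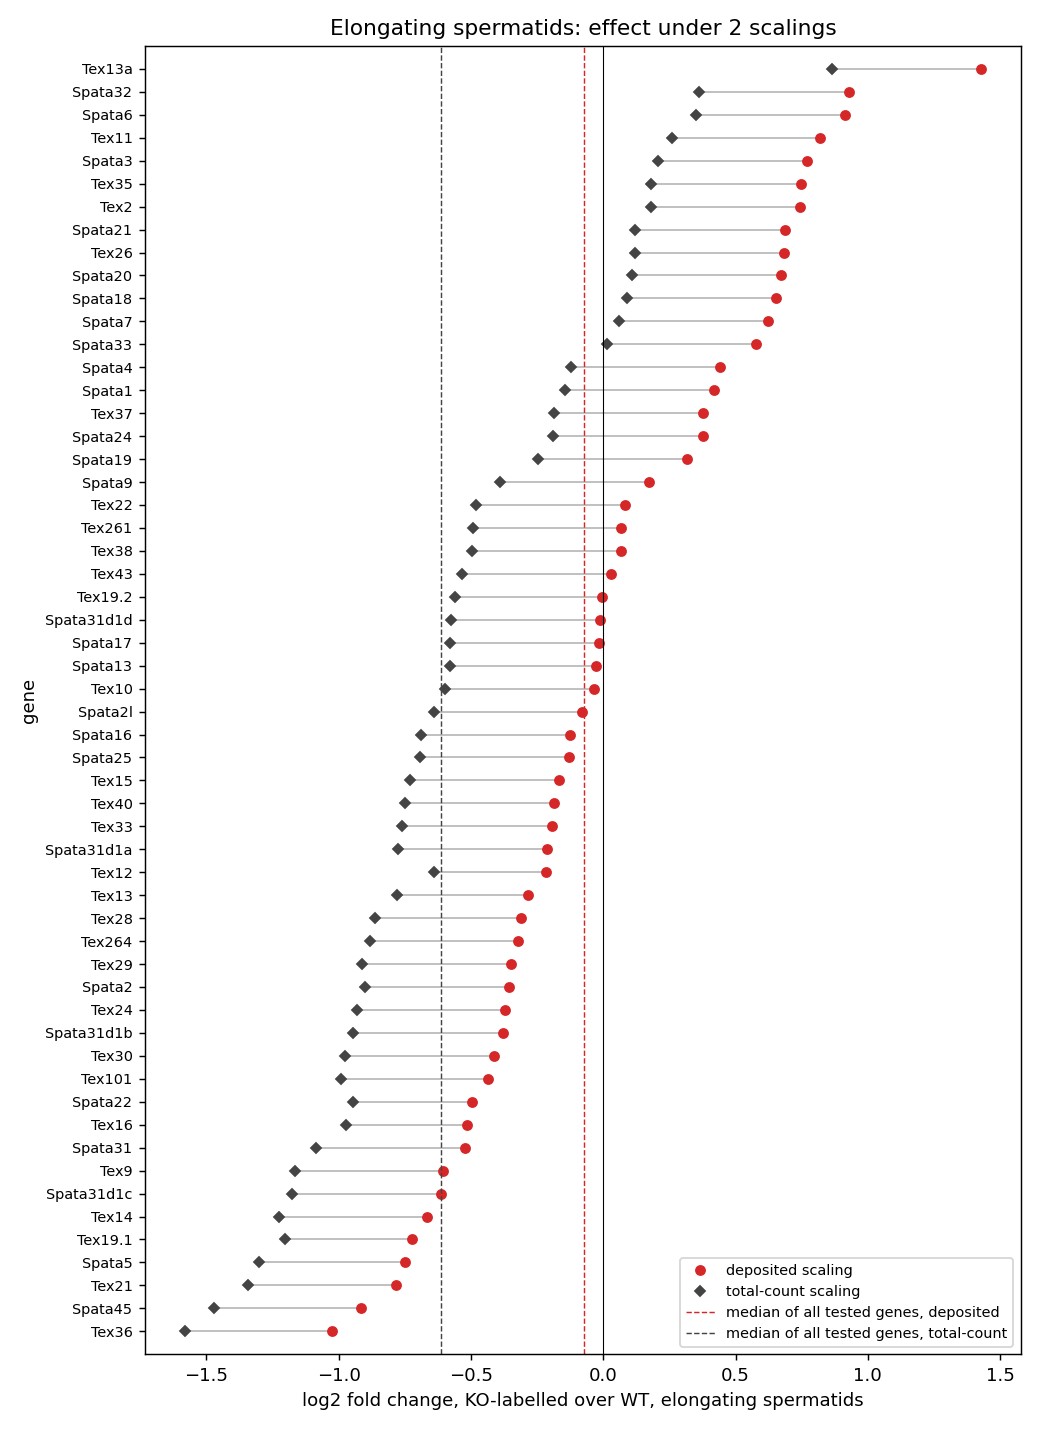
Log2 fold change of KO-labelled over WT libraries in elongating spermatids for 56 genes (Spata5l1, with 2 reads in the KO-labelled group, is left out), with circles for the deposited scaling, diamonds for total-count scaling and dashed lines for the medians of all tested genes, -0.07 and -0.61. Every gene lies further left with total-count scaling, and Tex13a stays furthest right and Tex36 furthest left.

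The contrasts at the 2 stages share no library, though both use a spread estimated from all 8. Of the 57 members 18 were called at both stages, 22 in elongating spermatids only, 9 in round spermatids only and 8 at neither, that is 31.6% at both, 38.6% in elongating only, 15.8% in round only and 14% at neither. Over all tested genes these shares were 23.4% at both, 31.6% in elongating only, 8.55% in round only and 36.4% at neither. Called higher at both stages were 9, which is 50% of the rises in elongating and 50% of those in round spermatids. Called lower at both were 6, or 27.3% of the falls in elongating and 66.7% of those in round spermatids. For all tested genes the shares were 44.7% and 62.8% of rises and 22.9% and 50.4% of falls. The directions rest on the labels as given, which the Carm1 level puts in doubt in elongating spermatids. With the elongating signs turned, the 15 members called in the same direction would count as opposite and the 3 others as alike. The members called in opposite directions were Spata16 and Spata45, lower in elongating and higher in round KO-labelled libraries, and Tex35, higher in elongating and lower in round. These are 16.7% of the members called at both stages, against 20.9% of all tested genes called at both.

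**Figure D3:**
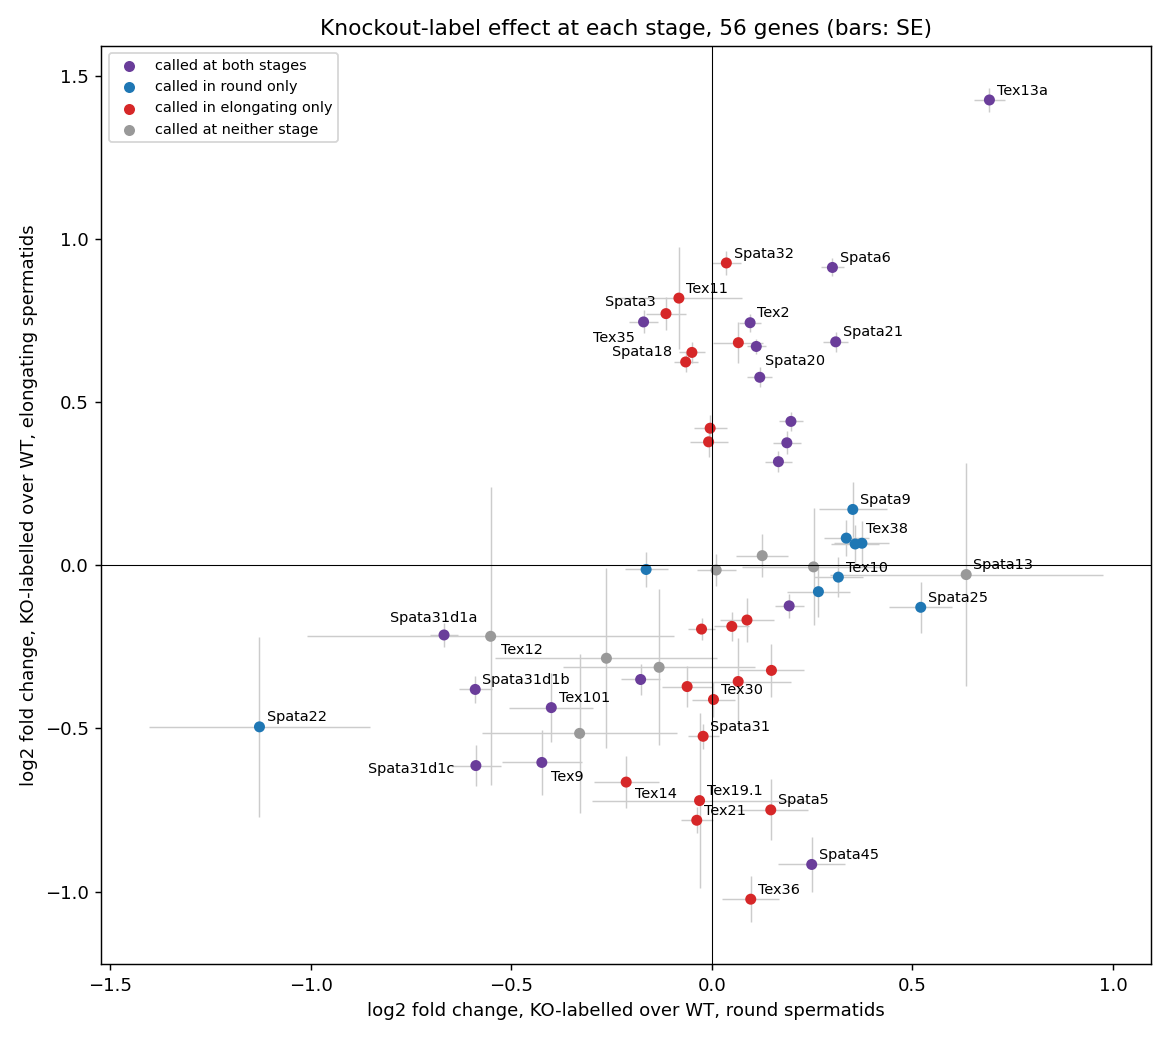
Log2 fold change of KO-labelled over WT libraries in round (horizontal) and elongating spermatids (vertical) for 56 genes, with SE bars and colours for the stage at which a gene was called. Tex13a lies highest at 1.43, Tex36 lowest at -1.02, and Spata22 furthest left at -1.13.

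Genes of the acrosome, sperm head and head-to-tail coupling numbered 7. In elongating spermatids 3 were called higher and 2 lower in KO-labelled libraries (against 27.3% and 27.7% of all tested genes). In round spermatids 5 were called higher and 1 lower (against 19.4% and 12.6%). Spata6 measured 120873 and 115632 in elongating KO-labelled libraries, against 62473 and 63093 in elongating WT libraries. It measured 12014 and 12288 in round KO-labelled libraries, against 9809.9 and 9918 in round WT libraries. The KO-labelled libraries were above WT at both stages, by 0.91 in elongating (SE 0.028, adjusted p = 2.6e-12) and 0.30 in round spermatids (SE 0.028, adjusted p = 1.3e-06), and both calls held in every alternative run. Spata20, which encodes a thioredoxin-like spermatid protein, rose by 0.67 in elongating spermatids, at 154248 and 151495 in elongating KO-labelled libraries, against 95747 and 96288 in elongating WT libraries. Its rise in round spermatids was 0.11 (adjusted p = 0.0027) and ended with total-count scaling (adjusted p = 0.48). Spata32 was higher in elongating KO-labelled cells, with 22503 and 22087 in elongating KO-labelled libraries, against 11917 and 11538 in elongating WT libraries (log2 fold change 0.93, SE 0.036, adjusted p = 2.4e-11). The round values were 822 and 840.1 in round KO-labelled libraries, against 815 and 805 in round WT libraries, a log2 fold change of 0.04 that did not pass (adjusted p = 0.49). Spata16, whose loss gives round-headed sperm without an acrosome in humans, fell in elongating and rose in round spermatids, with log2 fold changes of -0.12 (adjusted p = 0.0099) in elongating and 0.19 (adjusted p = 9.3e-04) in round cells. The elongating call ended with DESeq2 (adjusted p = 0.052) and without elongating WT replicate 1 (adjusted p = 0.087).

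Tex38 and Tex22 rose in round spermatids and did not pass in elongating ones. Tex38, which binds the palmitoyltransferase ZDHHC19, measured 1477 and 1587 in round KO-labelled libraries, against 1199 and 1190 in round WT libraries (log2 fold change 0.36, SE 0.059, adjusted p = 3.1e-04). Tex22 measured 3181 and 3533 in round KO-labelled libraries, against 2814 and 2508 in round WT libraries (log2 fold change 0.34, SE 0.056, adjusted p = 3.4e-04). Their elongating log2 fold changes were 0.07 and 0.08, and the difference between the stages passed for both (adjusted p = 0.013 and 0.022). The difference of Tex38 ended with DESeq2 (adjusted p = 0.057) and that of Tex22 with the replicate block (adjusted p = 0.061). Both differences lost their call without round KO-labelled replicate 2 (adjusted p = 0.074 and 0.11) or round WT replicate 2 (0.055 and 0.14), and that of Tex22 without elongating WT replicate 1 (0.063) or 2 (0.074). Tex101 was lower at both stages. It measured 132 and 99.9 in elongating KO-labelled libraries, against 159 and 153 in elongating WT libraries, a log2 fold change of -0.44 (adjusted p = 0.0026). In round spermatids it measured 768 and 801 in round KO-labelled libraries, against 1040.4 and 1029 in round WT libraries, a log2 fold change of -0.40 (adjusted p = 0.0089). The round call ended without round KO-labelled replicate 1, round WT replicate 1 or round WT replicate 2, with adjusted p = 0.076, 0.072 and 0.062.

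Of 7 genes of the flagellum and midpiece, 4 were called higher and 1 lower in elongating KO-labelled libraries (against 27.3% and 27.7% of all tested genes). In round ones 2 were called higher and 0 lower (against 19.4% and 12.6%). Spata18 had the highest level of all members at 226257 and 220684 in elongating KO-labelled libraries, against 140222 and 144091 in elongating WT libraries (log2 fold change 0.65, SE 0.033, adjusted p = 3.0e-10). Its round values were 5692 and 6077 in round KO-labelled libraries, against 6200.2 and 5975 in round WT libraries, where the groups overlapped and the test did not pass (log2 fold change -0.05, adjusted p = 0.28). Spata33, which tethers the phosphatase calcineurin in the midpiece, measured 20108 and 20077 in elongating KO-labelled libraries, against 13555 and 13394 in elongating WT libraries (log2 fold change 0.58, SE 0.031, adjusted p = 5.8e-10). With total-count scaling this was 0.01 (adjusted p = 0.72). In round spermatids its rise of 0.12 (adjusted p = 0.0078) ended without round KO-labelled replicate 1 (adjusted p = 0.057), without round WT replicate 2 (adjusted p = 0.082) and with total-count scaling. Spata19, a mitochondrial protein of the midpiece, rose by 0.32 in elongating and 0.17 in round spermatids, and its round call ended with total-count scaling (0.08, adjusted p = 0.067). Tex37 rose by 0.38 in elongating spermatids and measured -0.01 in round (adjusted p = 0.93). With total-count scaling the elongating values of Spata19 and Tex37 turned to -0.25 and -0.19, still above the median of all genes on that scale. Tex40, annotated as Catsperz, was the one fall in this group. It measured 2267 and 2094 in elongating KO-labelled libraries, against 2466 and 2496 in elongating WT libraries (log2 fold change -0.19, SE 0.043, adjusted p = 0.002), but its exons overlap those of Kcnk4 on the same strand. Tex43, another protein inside the doublets of the tail, and Spata17, which has calmodulin-binding IQ motifs, had elongating log2 fold changes of 0.03 and -0.01 and round ones of 0.13 and 0.01, none past the threshold.

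Of the Spata31 genes, a multicopy family of the testis, 0 of 5 rose. In elongating KO-labelled libraries 4 of 5 were called lower, and in round ones 4 of 5, with 3 called lower at both stages. Of all 15685 tested genes 27.7% were called lower in elongating and 12.6% in round spermatids, and 997 genes at both. All 5 lie on chromosome 13. Spata31d1a (59699806 to 59710330), Spata31d1b (59712284 to 59719295) and Spata31d1d (59725925 to 59731752) are neighbours, and Spata31 (64917406 to 64923194) and Spata31d1c (65033058 to 65038004) lie together further on, by GENCODE M21 on GRCm38. Spata31d1a and Spata31d1b point away from each other and their promoter windows are shown because these neighbours moved together and their sequences are much alike. The windows run from 250 bases before to 50 bases after the RefSeq start (GRCm38.p6), and the capitals mark the longest run they share, of 120 bases. Spata31d1a lies at chr13:59706148-59706447 on the minus strand and Spata31d1b at chr13:59712034-59712333 on the plus strand. The RefSeq start of Spata31d1a lies inside the gene as GENCODE draws it.
Spata31d1a: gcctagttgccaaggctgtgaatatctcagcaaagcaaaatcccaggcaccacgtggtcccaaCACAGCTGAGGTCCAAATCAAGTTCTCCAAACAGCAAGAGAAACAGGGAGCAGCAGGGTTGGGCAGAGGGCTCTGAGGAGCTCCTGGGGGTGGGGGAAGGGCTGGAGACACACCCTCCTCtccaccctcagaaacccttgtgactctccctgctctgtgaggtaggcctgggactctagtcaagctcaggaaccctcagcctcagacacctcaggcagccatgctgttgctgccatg
Spata31d1b: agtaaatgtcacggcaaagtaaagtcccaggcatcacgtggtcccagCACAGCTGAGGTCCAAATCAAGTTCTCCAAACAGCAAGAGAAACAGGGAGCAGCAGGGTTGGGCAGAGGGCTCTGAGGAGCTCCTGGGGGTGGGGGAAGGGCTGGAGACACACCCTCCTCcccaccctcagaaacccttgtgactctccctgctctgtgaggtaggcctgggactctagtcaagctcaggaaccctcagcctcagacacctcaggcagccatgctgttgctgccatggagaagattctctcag
These windows were 86.7% identical over 316 aligned columns, while the other pairs among the 4 Spata31d1 windows were 56.3% to 62.6% identical and those with Spata31 46.5% to 48.7%. In their transcripts, 18.8% of the 50-base words of Spata31d1a occur in Spata31d1b and 24.9% of those of Spata31d1b in Spata31d1a. Reads of these shared stretches cannot be assigned to 1 gene of the pair by sequence, and how they were counted is not stated. Each gene's own value is therefore uncertain.

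Spata31d1a measured 9859.9 and 9703 in elongating KO-labelled libraries, against 11209 and 11476 in elongating WT libraries (log2 fold change -0.21, SE 0.036, adjusted p = 1.4e-04). It measured 868 and 887 in round KO-labelled libraries, against 1399 and 1389.8 in round WT libraries (log2 fold change -0.67, SE 0.036, adjusted p = 6.2e-09). Each KO-labelled library was below both WT libraries of its stage. Spata31d1b measured 7888 and 7316 in elongating KO-labelled libraries, against 9726 and 10055 in elongating WT libraries (log2 fold change -0.38, SE 0.041, adjusted p = 1.6e-06). It measured 1493 and 1545 in round KO-labelled libraries, against 2288 and 2284 in round WT libraries (log2 fold change -0.59, SE 0.041, adjusted p = 8.9e-08). The falls of these 2 genes were smaller in elongating than in round spermatids, with differences of 0.45 (adjusted p = 4.9e-06) and 0.21 (adjusted p = 0.011), which turned to -0.02 and -0.27 with total-count scaling. The difference of Spata31d1b also lost its call without elongating WT replicate 1 (adjusted p = 0.06). Spata31d1c shared 0% of its 50-base words with other genes. It measured 1193 and 1156 in elongating KO-labelled libraries, against 1759.7 and 1836 in elongating WT libraries and 383 and 430.5 in round KO-labelled libraries, against 599 and 623 in round WT libraries, with log2 fold changes of -0.61 (adjusted p = 8.7e-07) and -0.59 (adjusted p = 5.6e-06). The falls of Spata31d1a, Spata31d1b and Spata31d1c were called at both stages in every alternative run. In elongating spermatids the 2 kinds of totals shifted the median of all genes by -0.54 and -0.49, so that the falls held there adds little. Spata31 was called lower in elongating spermatids, at 1104 and 1078 in elongating KO-labelled libraries, against 1535 and 1604 in elongating WT libraries (log2 fold change -0.52, SE 0.038, adjusted p = 2.0e-08), and measured 6143 and 6131 in round KO-labelled libraries, against 6231 and 6226 in round WT libraries (log2 fold change -0.02, adjusted p = 0.73). The difference between the stages passed for Spata31 (-0.50, adjusted p = 3.5e-06). Exons of Spata31d1d overlap those of Gm46419 on the other strand, and the libraries are unstranded. Spata31d1d was called in round spermatids alone (log2 fold change -0.16, adjusted p = 0.029), a call that ended without round KO-labelled replicate 1 (adjusted p = 0.29), round WT replicate 1 (adjusted p = 0.14) or round WT replicate 2 (adjusted p = 0.12).

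**Figure D4:**
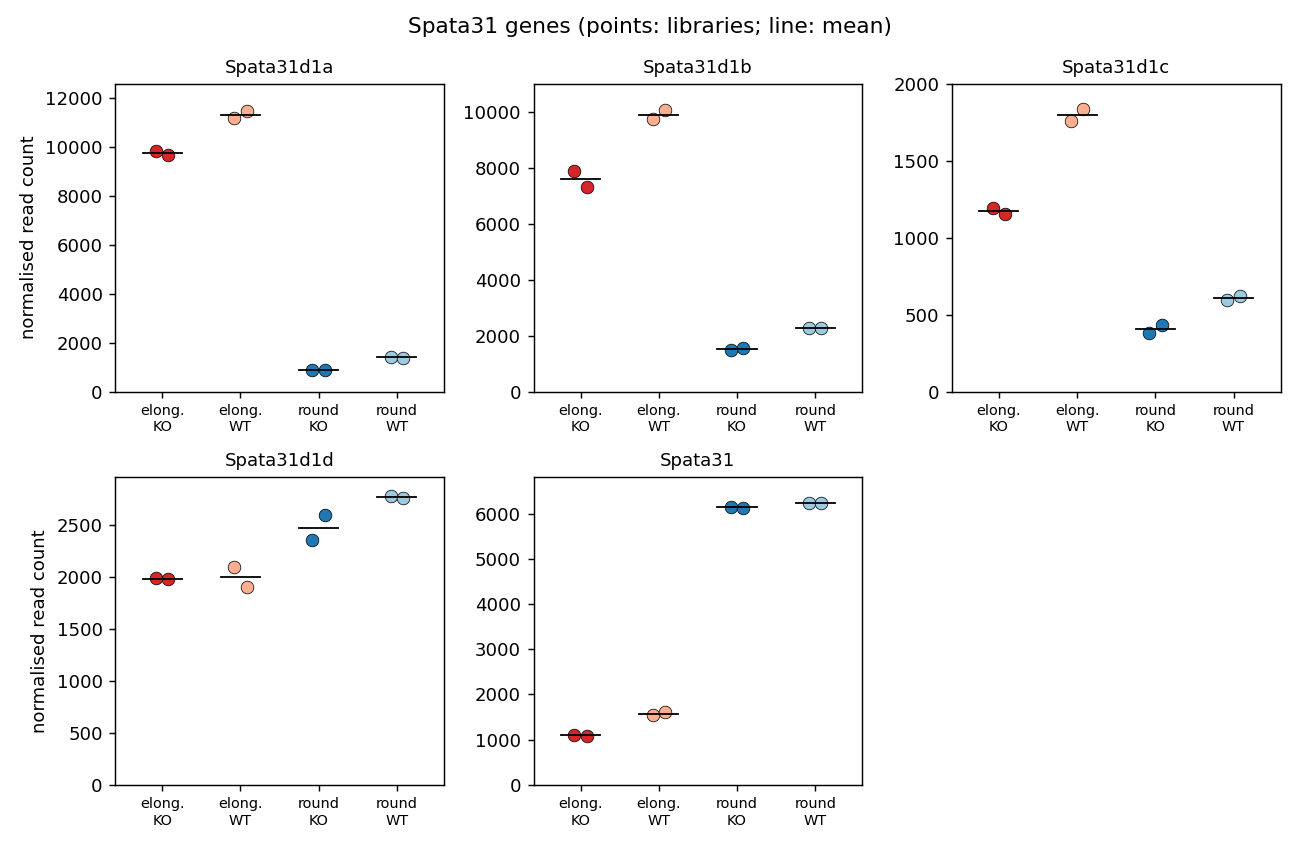
Normalised read counts of the 5 Spata31 genes, with 1 point per library and a line at the mean of each group, KO being the KO-labelled libraries. For Spata31d1a, Spata31d1b and Spata31d1c the KO-labelled libraries lie below WT at both stages, and the round libraries of Spata31 lie between 6131 and 6231.

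Of 7 genes with roles in meiosis, germ cell bridges and transposon control, 6 were called lower in elongating than in round WT libraries. Of all tested genes 40.2% were called lower there. In elongating KO-labelled libraries 1 was called higher and 3 lower (against 27.3% and 27.7% of all tested genes), and in round ones 0 higher and 1 lower (against 19.4% and 12.6%). Spata22, a partner of MEIOB on single-stranded DNA in recombination, had the largest fall of all members in round spermatids. It measured 43.9 and 35.5 in round KO-labelled libraries, against 81.4 and 93.8 in round WT libraries (log2 fold change -1.13, SE 0.28, adjusted p = 0.0056). This call ended without round KO-labelled replicate 2 (adjusted p = 0.073) or round WT replicate 2 (adjusted p = 0.077), and 79.7% of its 50-base words occur in the annotated gene Gm49340, so its reads are uncertain. In elongating spermatids Spata22 was at 7.76 and 11.3 in elongating KO-labelled libraries, against 12.9 and 14.4 in elongating WT libraries, which did not pass (adjusted p = 0.14). Tex11, an X-linked gene needed for crossovers, was the one rise. It measured 136 and 96.1 in elongating KO-labelled libraries, against 68.3 and 60.6 in elongating WT libraries (log2 fold change 0.82, SE 0.16, adjusted p = 4.2e-04), and the call ended with total-count scaling (0.26, adjusted p = 0.14) but not when any 1 library was left out. In round spermatids Tex11 measured 188 and 186 in round KO-labelled libraries, against 185 and 212 in round WT libraries (adjusted p = 0.75).

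Tex14, a component of the bridges that join germ cells, measured 337 and 366 in elongating KO-labelled libraries, against 512 and 607 in elongating WT libraries (log2 fold change -0.66, SE 0.081, adjusted p = 5.6e-06). In round spermatids it measured 916 and 880.1 in round KO-labelled libraries, against 995 and 1090.1 in round WT libraries, below WT in both libraries but short of the threshold (log2 fold change -0.21, adjusted p = 0.057). Tex15, which acts in DNA repair and in silencing transposons in male germ cells, had 673 and 562 in elongating KO-labelled libraries, against 678 and 704 in elongating WT libraries, a log2 fold change of -0.17 whose call (adjusted p = 0.048) ended without any 1 library other than elongating KO-labelled replicate 1, at adjusted p = 0.066 to 0.58, and with DESeq2 (adjusted p = 0.14). The paralogs Tex19.1 and Tex19.2 lie on chromosome 11 and had opposite courses. Tex19.1, which restrains retrotransposons, had 23.2 and 24.5 in elongating WT libraries, against 42.0 and 44.2 in round WT libraries, and Tex19.2 had 107 and 109.6 in elongating WT libraries, against 26.1 and 30.9 in round WT libraries. The fall of Tex19.1 between the stages lost its call without round WT replicate 2 (adjusted p = 0.061). In elongating KO-labelled libraries Tex19.1 was at 17.5 and 11.3 (log2 fold change -0.72, adjusted p = 0.034), a call that ended without any 1 library other than elongating KO-labelled replicate 1, at adjusted p = 0.054 to 0.19. Tex19.2 had log2 fold changes of -0.0048 in elongating and 0.25 in round spermatids, and Tex12 of -0.22 and -0.55, none past the threshold. Of 16 spermatocyte markers 5 were called higher and 7 lower in elongating and 6 higher and 4 lower in round KO-labelled libraries. Their summed levels were 35105 and 33877 in elongating KO-labelled against 23577 and 22918 in elongating WT libraries, and 26376 and 26139.5 in round KO-labelled against 24764 and 24948 in round WT libraries, and their part in these results was not tested.

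Among the 12 members listed as widely expressed, 2 were called higher and 6 lower in elongating KO-labelled libraries (against 27.3% and 27.7% of all tested genes). In round ones 4 were called higher and 1 lower (against 19.4% and 12.6%). Tex10, a subunit of a nuclear complex in ribosome assembly, measured 1784 and 1851 in round KO-labelled libraries, against 1466 and 1455 in round WT libraries (log2 fold change 0.32, SE 0.062, adjusted p = 0.0012). Tex261, a membrane protein of the early secretory pathway, measured 713 and 769.7 in round KO-labelled libraries, against 597 and 547 in round WT libraries (log2 fold change 0.37, SE 0.068, adjusted p = 7.1e-04). Both rises held under all 4 scalings, while neither gene passed in elongating spermatids (log2 fold changes -0.04 and 0.07). Spata2l, related to the CYLD adaptor Spata2, rose by 0.27 in round spermatids (adjusted p = 0.017), a call that ended without round KO-labelled replicate 2 (adjusted p = 0.14), round WT replicate 1 (adjusted p = 0.07) or round WT replicate 2 (adjusted p = 0.13). Spata5, an AAA ATPase in ribosome maturation, measured 112 and 124 in elongating KO-labelled libraries, against 182 and 219 in elongating WT libraries (log2 fold change -0.75, SE 0.093, adjusted p = 7.4e-06). Its round levels were 897 and 842 in round KO-labelled libraries, against 795 and 774 in round WT libraries, which did not pass (adjusted p = 0.26). Its relative Spata5l1 had 2 recovered reads in elongating KO-labelled and 17 in elongating WT libraries, a ratio of 0.165 with an exact 95% interval of 0.0185 to 0.696 that covers counting error only. Its call ended with DESeq2 (adjusted p = 0.09), and its fitted log2 fold change was -2.51, or -3.03 with a pseudocount of 0.5. Tex264, a receptor for turnover of the endoplasmic reticulum, fell by 0.32 in elongating spermatids (adjusted p = 0.0034), and Tex30 by 0.41 (adjusted p = 1.0e-05). Tex30 shares 13.5% of its 50-base words with the overlapping gene Gm29247 on the same strand. Spata2 had an elongating log2 fold change of -0.36 (adjusted p = 0.034), a call that ended without any 1 library other than elongating KO-labelled replicate 1, at adjusted p = 0.055 to 0.092, and with edgeR and DESeq2 (adjusted p = 0.12 and 0.29). Tex9 fell at both stages, by 0.60 in elongating and 0.42 in round spermatids. The round call of Tex9 ended without round KO-labelled replicate 2 (adjusted p = 0.078) or round WT replicate 2 (adjusted p = 0.063). Its exons overlap those of Mns1 on the other strand, and unstranded reads within the overlap cannot be told apart by strand. Likewise, exons of Tex10, Spata5, Spata2, Spata2l, Spata1 and Spata4 overlap those of a gene on the other strand. Spata13 had log2 fold changes of -0.03 in elongating and 0.63 in round spermatids, with overlapping groups at both stages (adjusted p = 0.95 and 0.18).

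Spata7 and Tex2 were the widely expressed members that rose in elongating spermatids. Spata7, a protein of the photoreceptor cilium, measured 45483 and 43896 in elongating KO-labelled libraries, against 28638 and 29376 in elongating WT libraries (log2 fold change 0.62, SE 0.029, adjusted p = 1.6e-10), and this call ended with total-count scaling (0.06, adjusted p = 0.052). In round spermatids it measured 5258 and 5198 in round KO-labelled libraries, against 5426 and 5512 in round WT libraries (adjusted p = 0.11). Tex2, a lipid-binding protein of the endoplasmic reticulum, measured 25579 and 25122 in elongating KO-labelled libraries, against 15269.6 and 15009 in elongating WT libraries (log2 fold change 0.74, SE 0.028, adjusted p = 1.7e-11). Its round rise of 0.10 (adjusted p = 0.016) ended without round KO-labelled replicate 2 (adjusted p = 0.077), without round WT replicate 2 (adjusted p = 0.13), with the replicate block (adjusted p = 0.072) and with total-count scaling.

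The series' title names CREM, a transcription factor of spermatids that binds the cAMP response element, so the promoter windows of the members were searched on both strands for TGACGTCA, the full element, and for TGACG, the short form, which lies within the full one. Windows were found for 49 of 57 members. Spata7 alone held the full element, 1 of 49 members (2.04%) against 549 of 27025 genes with a window (2.03%). The short form was in 11 of 49 members (22.4%) against 6228 of all genes (23.0%). Of the members with a window called higher in elongating KO-labelled libraries, 5 of 15 held the short form, as did 5 of the 20 called lower and 1 of the 14 not called. In round spermatids 1 of 14 called higher, 0 of 9 called lower and 10 of 26 not called held it. The window of Spata7 lies at chr12:98627892-98628191 on the plus strand (RefSeq, GRCm38.p6) and is shown with the element in capitals, which begins 7 bases before the start.
Spata7: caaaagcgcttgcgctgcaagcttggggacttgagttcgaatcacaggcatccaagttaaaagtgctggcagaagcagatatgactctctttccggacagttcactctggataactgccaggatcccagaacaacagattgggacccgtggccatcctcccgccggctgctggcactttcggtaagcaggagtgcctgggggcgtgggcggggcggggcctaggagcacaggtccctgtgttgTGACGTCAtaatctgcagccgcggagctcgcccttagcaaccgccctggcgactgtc
A match of letters is a description and not a measured binding site.

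For the other 19 members no function is stated here. In elongating spermatids 8 of them were called higher and 6 lower (against 27.3% and 27.7% of all tested genes), and in round spermatids 7 higher and 2 lower (against 19.4% and 12.6%). Tex13a, an X-linked gene (chromosome X, 138208165 to 138209580), had the largest rise of all 57 at both stages. It measured 18364 and 17960.2 in elongating KO-labelled libraries, against 6751 and 6760.2 in elongating WT libraries (log2 fold change 1.43, SE 0.038, adjusted p = 8.5e-13). Round values were 1059 and 1102 in round KO-labelled libraries, against 662 and 674 in round WT libraries (log2 fold change 0.69, SE 0.038, adjusted p = 6.8e-09). Both calls held in every alternative, and with total-count scaling the values were 0.86 and 0.60. Its relative Tex13, annotated as Tex13b and also X-linked, did not pass at either stage, with log2 fold changes of -0.28 and -0.26.

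Spata3, Tex35, Spata21 and Tex26 were the next largest rises of these genes in elongating spermatids. Spata3 measured 138989 and 126975 in elongating KO-labelled libraries, against 74225 and 81579.6 in elongating WT libraries (log2 fold change 0.77, SE 0.05, adjusted p = 5.3e-09). Tex35 measured 30716 and 29433 in elongating KO-labelled libraries, against 17569 and 18291 in elongating WT libraries (log2 fold change 0.75, SE 0.035, adjusted p = 1.6e-10). Tex35 was lower in the round KO-labelled cells, with 1985 and 1939.9 in round KO-labelled libraries, against 2242 and 2174 in round WT libraries (log2 fold change -0.17, SE 0.035, adjusted p = 0.0018), and both of its calls held in every alternative. Spata21 measured 101155 and 100712 in elongating KO-labelled libraries, against 61889 and 63674 in elongating WT libraries and 17931 and 19219 in round KO-labelled libraries, against 15068 and 14901 in round WT libraries, with rises of 0.69 and 0.31 that also held in every alternative. Tex26 rose by 0.68 in elongating spermatids and its call ended with total-count scaling (adjusted p = 0.097). Spata4, Spata1 and Spata24 rose there by 0.44, 0.42 and 0.38, which turned to -0.12, -0.14 and -0.19 with total-count scaling. In round spermatids Spata4 and Spata24 rose by 0.20 and 0.19, called under all 4 scalings. Of the 50-base words of Spata24, 32.5% occur in a second annotated gene, SPATA24, on the same strand, so its reads are uncertain.

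Tex36, Spata45 and Tex21 had the largest falls in elongating spermatids after Spata5l1. Tex36 measured 227 and 202 in elongating KO-labelled libraries, against 464 and 409.5 in elongating WT libraries (log2 fold change -1.02, SE 0.071, adjusted p = 1.2e-08). In round spermatids it was at 2184 and 2314 in round KO-labelled libraries, against 2089 and 2114 in round WT libraries and did not pass (adjusted p = 0.34). Spata45 measured 165 and 149 in elongating KO-labelled libraries, against 319.7 and 275 in elongating WT libraries (log2 fold change -0.92, SE 0.083, adjusted p = 2.2e-07). It was higher in the round KO-labelled libraries, at 1288 and 1316 in round KO-labelled libraries, against 1044 and 1149 in round WT libraries (log2 fold change 0.25, adjusted p = 0.033). That round call ended when any 1 of the 4 round libraries was left out, with adjusted p = 0.11 and 0.16 without KO-labelled replicates 1 and 2 and 0.28 and 0.053 without WT replicates 1 and 2. Tex21 measured 632 and 635 in elongating KO-labelled libraries, against 1094 and 1086 in elongating WT libraries (log2 fold change -0.78, SE 0.04, adjusted p = 4.1e-10), and in round spermatids its log2 fold change was -0.04 (adjusted p = 0.53). Tex24, Tex29 and Tex33 fell by smaller amounts, 0.37, 0.35 and 0.20. Tex24 shares 32.7% of its 50-base words with Gm6853 and Gm8110, so its reads are uncertain. Tex29 was also lower in round spermatids, with a log2 fold change of -0.18 (adjusted p = 0.012), a call that ended without round KO-labelled replicate 1 (adjusted p = 0.11) or round WT replicate 1 (adjusted p = 0.11). Spata25 and Spata9 rose in round spermatids without passing in elongating ones. Spata25 measured 420.3 and 454 in round KO-labelled libraries, against 283 and 327 in round WT libraries (log2 fold change 0.52, SE 0.078, adjusted p = 1.3e-04), but its exons overlap those of Zswim1 on the other strand. Spata9 measured 1603 and 1565 in round KO-labelled libraries, against 1226 and 1257 in round WT libraries (log2 fold change 0.35, SE 0.085, adjusted p = 0.0053), a call that ended without round WT replicate 1 (adjusted p = 0.054). The low X-linked genes Tex16 and Tex28 had log2 fold changes of -0.52 and -0.31 in elongating and -0.33 and -0.13 in round spermatids, none past the threshold.

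**Figure D5:**
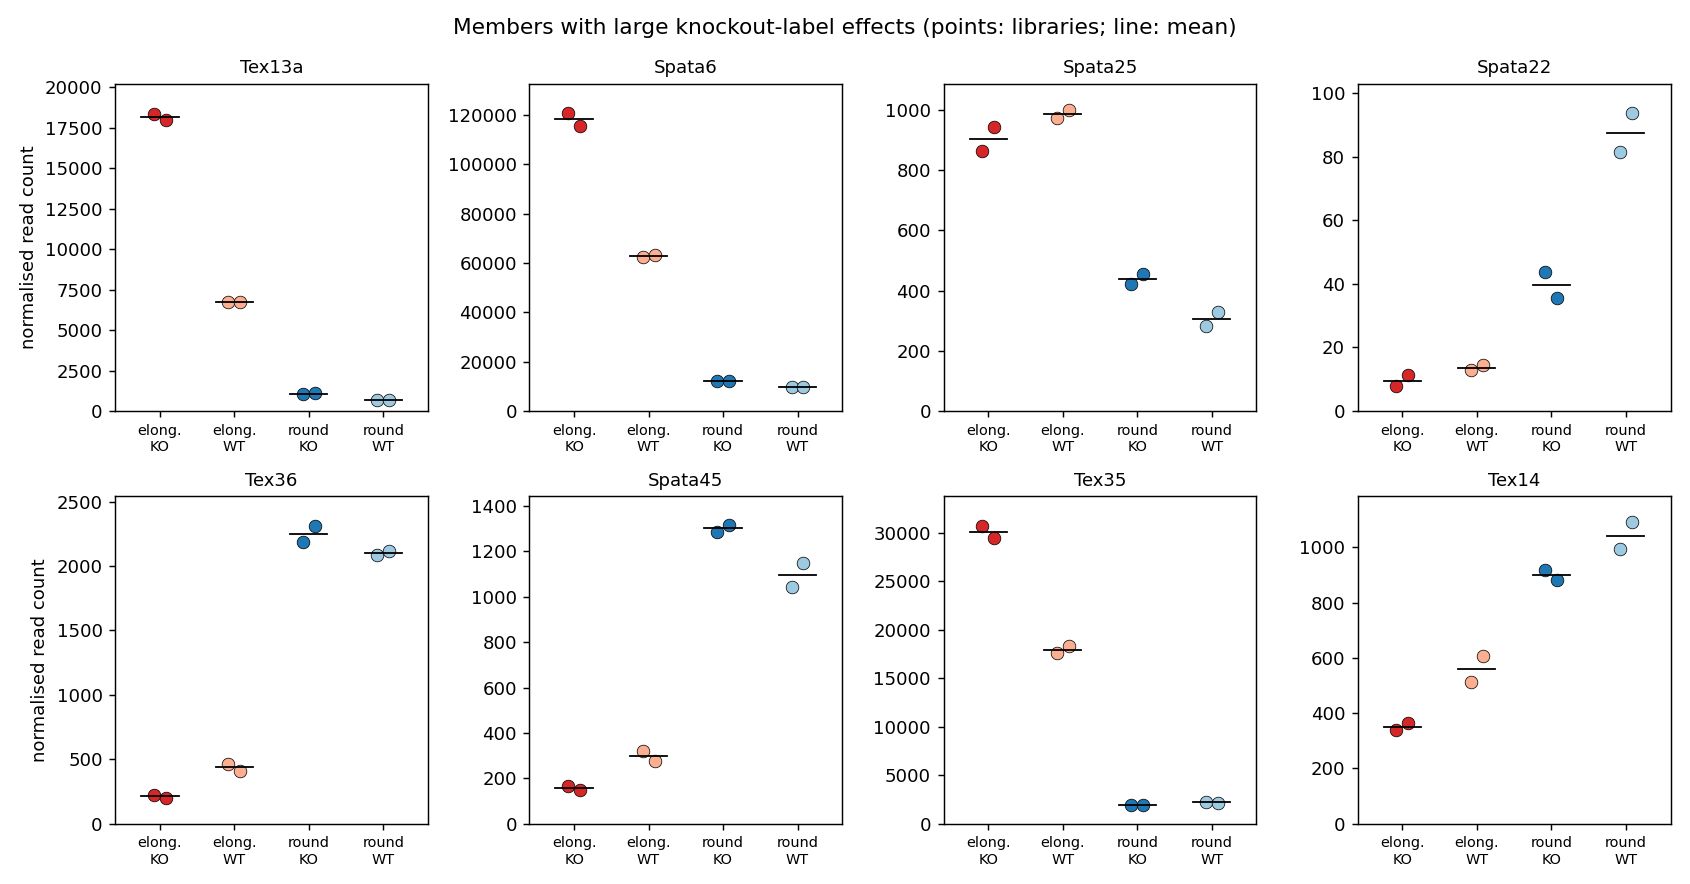
Normalised read counts of 8 members with large effects of the knockout label, with 1 point per library and a line at the mean of each group, KO being the KO-labelled libraries. Tex13a is above WT at both stages, Tex36 and Spata45 are below WT in elongating libraries, and Tex35 is above WT in elongating and below it in round libraries.

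The difference between the knockout-label effects at the 2 stages was tested in the same model. It was called positive, that is more upward in elongating than in round spermatids, for 20 of 57 members and negative for 20, 35.1% each, where 19.3% and 17.5% of all tested genes were called, 36.9% in either direction. The median difference was -0.17 for the members and -0.04 for all tested genes. Its sign and order rest on the elongating labels as given, which the Carm1 level puts in doubt. The 8 largest positive differences were those of Tex35 (0.92), Tex11 (0.90), Spata32 (0.89), Spata3 (0.89), Tex13a (0.73), Spata18 (0.70), Spata7 (0.69) and Tex2 (0.65). The 8 largest negative ones were those of Spata5l1 (-2.90, fitted on few reads), Spata45 (-1.17), Tex36 (-1.12), Spata5 (-0.90), Tex21 (-0.74), Spata25 (-0.65), Spata31 (-0.50) and Tex264 (-0.47). With total-count scaling 9 were called positive and 35 negative (858 and 7071 of the 15685 tested genes). The difference of Tex11 lost its call there (0.43, adjusted p = 0.11), as it did with totals without the 50 most abundant genes (0.49, adjusted p = 0.075). Without round KO-labelled replicate 2 fewer negative differences were called, both among the members and over all tested genes.

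Genes known to work with members were listed beside them, 103 genes of which 96 were in the table and tested. In elongating spermatids 30 of these were called higher and 35 lower (median log2 fold change -0.11, against -0.07 over all tested genes), and in round spermatids 26 higher and 17 lower (median 0.01, against 0.03). These lists are short and chosen by hand, and of all tested genes 27.3% were called higher and 27.7% lower in elongating and 19.4% and 12.6% in round spermatids. Around Spata6, 8 of 12 genes of head-to-tail coupling were called higher and 1 lower in elongating spermatids, and 5 and 1 in round spermatids. Odf1 and Odf2 of this list are also among the elongating spermatid markers above, so these counts are not separate. Other partner lists share genes with marker lists too, such as Zpbp and Catsper3. Around Spata16, 3 of 11 acrosome genes were called higher and 5 lower in elongating and 3 higher and 0 lower in round spermatids. Zpbp2, an acrosomal matrix protein gene, and Fam209 fell over 2-fold in elongating spermatids, by 1.02 and 1.17. Around Tex40, 2 of 9 CatSper genes rose and 6 fell in elongating spermatids. Catsperg2 measured 3576 and 3567 in elongating KO-labelled libraries, against 842 and 842 in elongating WT libraries, a log2 fold change of 2.08. Around Tex11 and Tex12, 5 of 11 meiotic genes rose and 3 fell in elongating spermatids. Mlh3, a gene of meiotic crossover, fell by 1.04. Rnf31, a ubiquitin ligase gene listed with Spata2, rose by 1.46, and Tpst2, listed with Tex101, fell by 1.08. In round spermatids the partners called over 2-fold were 4930447C04Rik, which fell by 1.06, and the mitochondrial channel gene Vdac1, which fell by 1.21 at 6.99 and 5.07 in round KO-labelled libraries, against 12.1 and 18.8 in round WT libraries. Around Spata33, 1 of 9 genes rose and 3 fell in elongating spermatids, and around Tex14 2 of 6 rose and 4 fell. Around Spata22 and Tex15 1 of 10 rose and 4 fell there, around Spata2 4 of 6 rose and 1 fell, around Spata5 and Tex10 0 of 8 rose and 2 fell, and around Tex101 4 of 13 rose and 6 fell, while Zdhhc19, the partner of Tex38, did not pass in elongating and rose by 0.23 in round spermatids.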

How the data were processed

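Poly A RNA was sequenced in 8 libraries of sorted spermatids. The deposited signal is a normalised read count per gene: reads over a library's size factor, as the authors made it, since every value was a whole multiple of its column's lowest nonzero entry (100% within 1e-06). Per the submitters' processing notes, the tools were DESeq 1.16.0, HTSeq 0.6.0, TopHat2 2.0.10 and CASAVA 1.8.2, with mm10 and GRCm38. No annotation or strand setting is named there. Genes reaching 10 in 2 or more libraries were tested with limma 3.58.1 (R 4.3.3, empirical Bayes trend) on log2(value + 1), 4 group means over 8 libraries with 4 residual degrees of freedom, with two-sided p-values adjusted by Benjamini-Hochberg over all 15685 genes and a threshold of 0.05. Fold changes on this scale understate the change of low genes. edgeR 4.0.16 and DESeq2 1.42.0 on the recovered reads were alternatives. Libraries of a group differed by more than sampling noise (chi-square 1.37 to 2.31 per gene) and were counted separately. Positions and exon lengths came from GENCODE M21 (55 symbols matched directly, 2 as older symbols). The group of genes to describe, and all lists, were chosen with earlier results of these data known. By the rule for naming, the members named are the 10 largest rises and falls per knockout contrast, the 8 largest per other contrast and those with a listed role, and the partners named are those called over 2-fold, of which 1 is not reported here. Alternatives were 2 other pseudocounts, 2 other filters, 3 other scalings, edgeR, DESeq2, each stage alone, a replicate block and each library left out.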

Additional observations from a re-analysis of the deposited data

Results flagged for a closer look

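For 40 of the 57 genes the effect of the knockout label in elongating spermatids minus that in round spermatids (log2) passed the test of the difference itself. That is 70.2% of the members, against 36.9% of all 15685 tested genes. Positive values were those of Tex35 (0.92), Tex11 (0.90), Spata32 (0.89), Spata3 (0.89) and Tex13a (0.73). They were followed by Spata18 (0.70), Spata7 (0.69), Tex2 (0.65), Tex26 (0.62) and Spata6 (0.61). Smaller positive values were those of Spata20 (0.56), Spata33 (0.46), Spata31d1a (0.45), Spata1 (0.42) and Tex37 (0.39), and then Spata21 (0.38), Spata4 (0.24), Spata31d1b (0.21), Spata24 (0.19) and Spata19 (0.15). Negative values were those of Spata5l1 (-2.90), Spata45 (-1.17), Tex36 (-1.12), Spata5 (-0.90) and Tex21 (-0.74). Next came Spata25 (-0.65), Spata31 (-0.50), Tex264 (-0.47), Tex14 (-0.45) and Tex30 (-0.42). Smaller negative values were those of Tex10 (-0.35), Spata2l (-0.35), Spata16 (-0.32), Tex24 (-0.31) and Tex261 (-0.31), and then Tex38 (-0.29), Tex15 (-0.26), Tex22 (-0.25), Tex40 (-0.24) and Tex33 (-0.17). In Spata16 and Spata45 the called effects had opposite signs with a fall in elongating spermatids, and in Tex35 with a rise there. Some calls ended when 1 library was left out, with the adjusted p given in brackets. Without elongating KO-labelled replicate 1 these were Spata19 (0.074), Spata2l (0.051) and Spata5l1 (0.059). Leaving out elongating KO-labelled replicate 2 ended Tex15 (0.16). Without elongating WT replicate 1 these were Spata31d1b (0.06), Spata5l1 (0.084), Tex15 (0.079), Tex22 (0.063), Tex261 (0.072) and Tex33 (0.055). Leaving out elongating WT replicate 2 ended Spata19 (0.089), Spata2l (0.055), Spata5l1 (0.056), Tex15 (0.15) and Tex22 (0.074). Without round KO-labelled replicate 1 these were Spata5l1 (0.058) and Tex15 (0.12). Leaving out round KO-labelled replicate 2 ended Spata2l (0.099), Spata5l1 (0.086), Tex15 (0.1), Tex22 (0.11), Tex24 (0.051), Tex261 (0.11) and Tex38 (0.074). Without round WT replicate 1 these were Spata2l (0.057), Tex15 (0.16), Tex24 (0.054) and Tex33 (0.065). Leaving out round WT replicate 2 ended Spata19 (0.072), Spata2l (0.094), Spata5l1 (0.11), Tex15 (0.089), Tex22 (0.14), Tex261 (0.12) and Tex38 (0.055). With total-count scaling the calls of Tex11 (0.43, adjusted p = 0.11) and Tex26 (0.14, adjusted p = 0.19) ended, and with totals without the 50 most abundant genes those of Spata1 (0.0078, adjusted p = 0.92), Spata31d1a (0.0375, adjusted p = 0.55), Spata33 (0.0401, adjusted p = 0.47), Tex11 (0.49, adjusted p = 0.075) and Tex26 (0.20, adjusted p = 0.075). The difference of Spata19 also ended with TMM scaling (0.12, adjusted p = 0.055) and with edgeR (adjusted p = 0.051). With DESeq2 the calls of Spata2l (adjusted p = 0.11), Tex24 (0.094), Tex261 (0.078), Tex38 (0.057) and Tex15 (0.056) ended, and Spata5l1 had no adjusted p. The replicate block ended those of Spata19 (0.05005), Tex15 (0.074) and Tex22 (0.061). That of Tex15 also ended with a pseudocount of 0.5 (0.054) and without the low-value filter (0.052). All signs rest on the elongating labels as given.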

How the results depend on the processing

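The scaling changed the counts most. Total-count scaling gave 16 falls in round spermatids, 9 rises and 42 falls in elongating spermatids, and 9 positive and 35 negative differences between the stages. Over all 15685 tested genes these counts were 3060, 1394 and 9854, and 858 and 7071. Totals without the 50 most abundant genes gave 16 falls in round and 40 in elongating spermatids, and 9 and 35 differences. Over all tested genes these were 3002 and 9308, and 1059 and 6411. Called log2 values that turned with total-count scaling were, for elongating KO-labelled against WT, Spata1 -0.14, Spata19 -0.25, Spata24 -0.19, Spata4 -0.12 and Tex37 -0.19. For the difference between the stages they were Spata1 -0.0499, Spata19 -0.32, Spata21 -0.0983, Spata24 -0.29, Spata31d1a -0.0202, Spata31d1b -0.27, Spata33 -0.0177, Spata4 -0.23 and Tex37 -0.088, and for elongating WT against round WT Spata17 -1.34, Spata33 -0.10, Spata4 -0.50, Tex2 -1.31, Tex26 -0.52, Tex33 -1.39 and Tex43 -0.48. With totals without the 50 most abundant genes the turned values were Spata1 -0.0835, Spata19 -0.19, Spata24 -0.13, Spata4 -0.0628 and Tex37 -0.13 in elongating spermatids, Spata19 -0.27, Spata21 -0.0406, Spata24 -0.23, Spata31d1b -0.21, Spata4 -0.17 and Tex37 -0.0303 for the difference, and Spata17 -0.92, Spata4 -0.085, Tex2 -0.90, Tex26 -0.10, Tex33 -0.97 and Tex43 -0.0668 between the WT stages. Tex33 between the WT stages was also -0.0137 with TMM scaling and -0.047 with edgeR. Total-count scaling by construction moves all genes together, and shifted the median of all genes by -0.54 in elongating spermatids and -1.43 between the WT stages. Leaving out 1 library gave 5 to 10 falls in round spermatids, lowest without round WT replicate 2, and 13 to 22 negative differences, lowest without round KO-labelled replicate 2. The replicate numbers did not pair the libraries, since deviations of same-numbered libraries correlated at -0.015 to 0.031, and the replicate block gave 19 rises and 21 falls in elongating and 17 and 10 in round spermatids. The other pseudocounts, filters and tests kept each count of members within 1.5 times. Depth limits the low members: Spata5l1, Tex12, Tex13, Tex16, Tex19.1 and Spata22 had group means under 25 in elongating spermatids.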
